A study of Mus musculus with 4 samples.

Results

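Levels of 3 growth factors and 3 receptor tyrosine kinases, 6 of the 98 genes of an RT-qPCR panel, were measured in mouse lungs. The 6 were taken by name from the panel, which holds further ligands of such receptors. They are the ligands *IGF-1*, *HGF* and *FGF-2* and the receptors *EGFR*, *KIT* and *SKY*, and all 6 were found among the assays. The panel was run on lungs of 4 groups of female C57BL/6J mice, aged 6 to 8 weeks, to ask how inhaled S100A8 and growing LLC cancers change the lung microenvironment. HBSS + vehicle mice had lungs without cancers and received HBSS, a balanced salt solution that served as control. S100A8 + vehicle mice had lungs without cancers and were given 10 µg of recombinant mouse S100A8, a small calcium-binding protein of myeloid cells. HBSS + LLC mice carried LLC cells, a mouse Lewis lung carcinoma line implanted in the lung, and received HBSS. S100A8 + LLC mice carried LLC cells and were given the same dose of S100A8. All groups had an injection of growth factor reduced Matrigel into the lung, with LLC cells or with vehicle, and intranasal treatment on Days 3, 6 and 9. Whole lungs were collected on Day 10. The LLC cancers come from 1 cell line, and RNA of cancer cells and of the host lung was measured together.

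Receptor tyrosine kinases are membrane proteins that pair up when a growth factor binds and then phosphorylate themselves and downstream proteins. Signals run through MAP kinases, phosphatidylinositol 3-kinase and STAT proteins to growth, survival and migration. In the lung, IGF-1 acts through the IGF-1 receptor, HGF is a stromal factor that acts on epithelium through MET, and FGF-2 is a heparin-binding mitogen of fibroblasts and endothelial cells. EGFR is the epithelial receptor of the EGF family, KIT is the stem cell factor receptor of mast cells and progenitor cells, and SKY is the panel's name for TYRO3, a receptor of GAS6 and protein S in the TAM family. None of these receptors is a receptor of the ligands measured here, so the 6 genes are members of the same families rather than partners.

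RT-qPCR reports the cycle (Ct) at which a product crosses the detection threshold. Each cycle multiplies the template by about 2, so a low Ct stands for a high level. The deposited Ct values are the authors' means over 4 to 5 mice. A group thus has 1 value per gene, no spread between mice is left, and no SD or test can be given for any difference below. Levels are Ct values relative to the mean Ct of 2 housekeeping assays, and a gene is called higher or lower where it differs by more than 2-fold. Set against HBSS + vehicle, the mean of the 2 housekeeping assays differed by 1.44 cycles after S100A8 alone, by -0.34 cycles with LLC cancers alone and by 0.99 cycles with both. In HBSS + LLC the first assay changed by 1.26 cycles and the second by -1.94 cycles, so values of that group depend most on the reference. The 6 genes had mean Ct values between 18.93 and 26.55, all below 30 cycles, while 13 to 23 of the panel genes were above 30 cycles in each group. In whole lung, fewer cells of a type and less RNA per cell cannot be told apart.

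*KIT* and *FGF-2* were the members past 2-fold in at least 1 comparison. *KIT* in S100A8 + LLC lay 2.36-fold below HBSS + LLC and 2.77-fold below S100A8 + vehicle. The latter call held under each of the 4 references, but there the alternatives moved log2 values by only 0.10, -0.10 and -0.17. The former was lost with the second housekeeping assay alone, at 1.30-fold. *FGF-2* in HBSS + LLC lay 3.14-fold above HBSS + vehicle, a call also lost under the second assay, at 1.04-fold. *IGF-1*, *HGF*, *EGFR* and *SKY* stayed within 2-fold in all 5 comparisons made with the mean of both housekeeping assays.

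**Figure D1:**
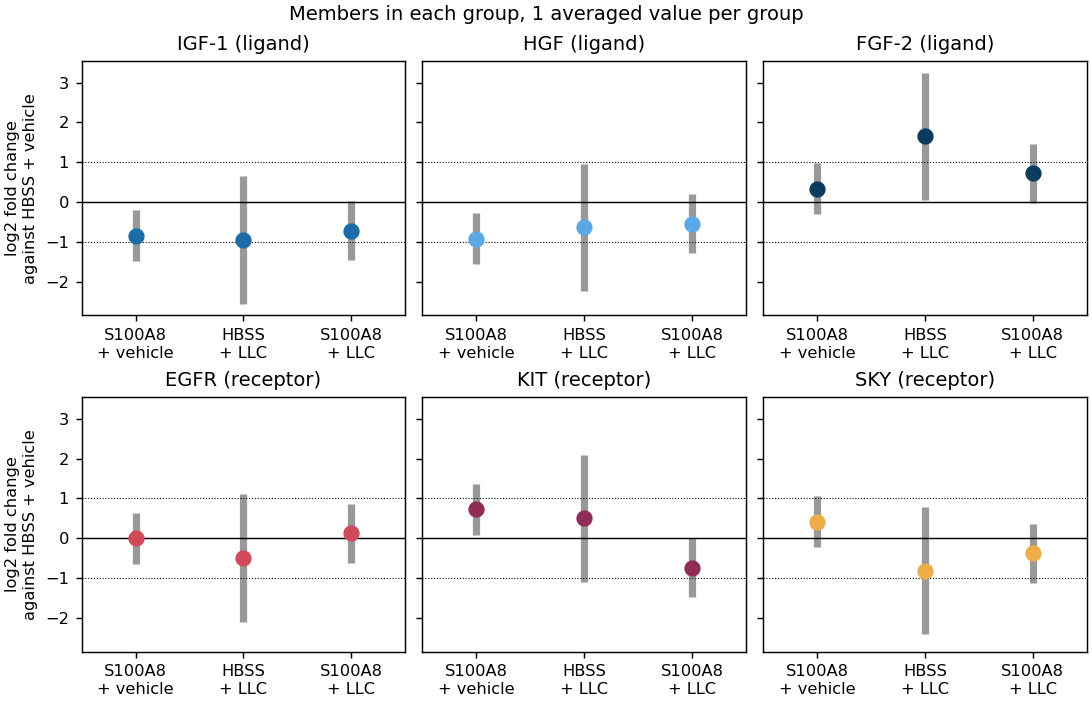
Log2 fold change against HBSS + vehicle (y axis) of each of the 6 genes in the other 3 groups (x axis). Points use the mean of both housekeeping assays and grey bars span the 4 references tried, not a spread between mice; dotted lines mark 2-fold. *FGF-2* in HBSS + LLC stands at 1.65, with a bar from 0.05 to 3.25, and *KIT* lies above 0 in S100A8 + vehicle at 0.73 and below it in S100A8 + LLC at -0.74.

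The stretches of DNA upstream of *KIT* and *FGF-2*, the members past 2-fold, and of *HGF*, whose profile ran closest to that of another member, are shown for context. They were read from RefSeq promoters of the mouse assembly GRCm38.p6, plus strand, 5′ to 3′, and end before the first annotated base of the gene. All 6 genes matched the promoter table. Capitals mark a GC box, and no other motif searched was found in these stretches. For *KIT* the stretch is chr5:75574737-75574986, for *FGF-2* it is chr3:37348403-37348476 and for *HGF* it is chr5:16553245-16553494.
KIT: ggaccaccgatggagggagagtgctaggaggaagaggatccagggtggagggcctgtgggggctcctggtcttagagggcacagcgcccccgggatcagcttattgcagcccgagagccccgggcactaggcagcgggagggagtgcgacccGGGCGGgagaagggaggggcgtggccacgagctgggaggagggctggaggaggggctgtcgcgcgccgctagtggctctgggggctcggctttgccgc
FGF-2: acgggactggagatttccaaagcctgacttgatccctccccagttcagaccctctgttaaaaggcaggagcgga
HGF: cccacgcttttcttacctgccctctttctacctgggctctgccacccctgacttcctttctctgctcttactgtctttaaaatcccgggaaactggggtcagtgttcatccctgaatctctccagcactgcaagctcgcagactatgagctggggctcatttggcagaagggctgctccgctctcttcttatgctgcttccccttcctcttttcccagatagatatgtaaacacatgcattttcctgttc

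In all, 5 motifs were searched on both strands in the 250 bases before each start site of the promoter records. They were the GC box GGGCGG, the TATA box TATAAA, the CCAAT box CCAAT, the hypoxia response core ACGTG and the AP-1 site TGANTCA. These start sites can lie inside the annotated gene. The windows of *IGF-1* and *SKY*, and 1 of *HGF*, had no base before the first annotated base of the gene. That of *FGF-2* had 74 such bases. The upstream window of *KIT* held 1 GC box, those of *FGF-2* and *EGFR* 1 each and that of *SKY* 3, and 32.7% of all 32851 upstream windows held at least 1. The GC box of *FGF-2* is not within the stretch printed. Of the other motifs, *IGF-1* held 1 CCAAT box and 1 AP-1 site, against 33.8% and 6.75% of all windows, and neither window of *HGF* held any of the 5. TATA boxes were in 12.4% and hypoxia response cores in 16.6% of all windows, and in none of the 6 genes. The windows of *KIT* and *SKY* had a GC content of 70.8% and 73.2%, above that of *HGF*, at 50.8% in the stretch shown. These letters describe the windows, and RT-qPCR does not measure which protein binds them.

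Among the ligands, *FGF-2* had a mean Ct in lungs without cancers of 23.59 after HBSS and 24.69 after S100A8, and in lungs with LLC cancers of 21.60 after HBSS and 23.85 after S100A8. It was detected earliest in HBSS + LLC, which also had its highest normalized level under each of the 4 references. On the log2 scale the difference from HBSS + vehicle was 0.34 after S100A8 alone, 1.65 with LLC cancers alone and 0.73 with both. Among 98 panel genes, *FGF-2* held rank 23 by fold change with LLC cancers alone and rank 27 with both, and ranks do not depend on the reference because it moves all genes alike. The 3.14-fold increase in HBSS + LLC was 9.51-fold when only the first housekeeping assay served as reference and 1.04-fold when only the second did, so the call is lost with the latter. Higher genes made up 26.5% of the 98 panel genes in this comparison, against 1 of the 6 members.

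Compared with HBSS + LLC, *FGF-2* in S100A8 + LLC was 1.89-fold lower, at a log2 fold change of -0.92. Over the references this ran from 1.04-fold to 3.43-fold lower, and the direction was the same under each. *FGF-2* was 82 of 98 from the top in this comparison. Between S100A8 + LLC and S100A8 + vehicle it differed by 1.31-fold, in the direction of higher in S100A8 + LLC.

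*IGF-1*, which signals growth and survival through its own receptor, had a mean Ct in lungs without cancers of 24.27 after HBSS and 26.55 after S100A8, and in lungs with LLC cancers of 24.88 after HBSS and 25.97 after S100A8. After normalization to the mean of both housekeeping assays, HBSS + vehicle had the highest level, whereas HBSS + LLC had it with the first assay alone. The log2 fold changes against HBSS + vehicle were -0.84 after S100A8 alone, -0.95 with LLC cancers alone and -0.71 with both. None passed 2-fold. With LLC cancers alone the value ran from -2.55 to 0.65 over the references, and with both from -1.45 to 0.03, so neither has a settled direction. In S100A8 + vehicle the value stayed below 0 under each reference, from -1.48 to -0.20, and it passed 2-fold lower under 2 references, the second housekeeping assay and the panel median.

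*HGF*, the ligand of MET, had a mean Ct in lungs without cancers of 21.48 after HBSS and 23.84 after S100A8, and in lungs with LLC cancers of 21.77 after HBSS and 23.01 after S100A8. HBSS + vehicle had the highest normalized level under 3 of the 4 references and HBSS + LLC with the first assay alone. Log2 differences from it were -0.92 after S100A8 alone, -0.63 with LLC cancers alone and -0.54 with both. In S100A8 + vehicle *HGF* ranked 79 and *IGF-1* 78 of 97 genes from the top. For *HGF* in that group the value lay between -1.56 and -0.28 over the references. It ran from -2.23 to 0.97 with LLC cancers alone and from -1.28 to 0.20 with both, so the sign of these values depended on the reference. Between S100A8 + LLC and HBSS + LLC, the log2 fold change was 0.09 for *HGF* and 0.24 for *IGF-1*, and the sign of both depended on the reference.

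Among the receptors, *KIT* had a mean Ct in lungs without cancers of 19.77 after HBSS and 20.48 after S100A8, and in lungs with LLC cancers of 18.93 after HBSS and 21.50 after S100A8. It was detected latest in S100A8 + LLC, where its normalized level was also the lowest of the 4 groups, level with HBSS + vehicle when the first assay alone was the reference. The highest level was in S100A8 + vehicle under 2 of the 4 references and in HBSS + LLC under the other 2. Against HBSS + vehicle, *KIT* differed by 0.73 after S100A8 alone, 0.50 with LLC cancers alone and -0.74 with both on the log2 scale, none of them past 2-fold. In S100A8 + LLC this ran from -1.48 with the second housekeeping assay alone to 0 with the first alone. In HBSS + LLC it ran from -1.10 to 2.10, past 2-fold in opposite directions.

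Among lungs with LLC cancers, the level of *KIT* after S100A8 was below that after HBSS by a log2 fold change of -1.24. It ranked 11 of 98 from the lowest. Lower genes were 15.3% of the panel in this comparison, and higher genes 11.2%. *KIT* was 4.29-fold lower when only the first housekeeping assay served as reference and 1.30-fold lower when only the second did, under 2-fold in the latter case. In mice given S100A8, *KIT* was 2.77-fold lower with LLC cancers than without, from 2.58-fold to 3.12-fold over the references. This was the only member past 2-fold in that comparison, under each reference, and it ranked 11 of 98 from the lowest, where lower genes made up 29.6% of the panel and higher genes 12.2%.

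*EGFR*, the epithelial receptor, had a mean Ct in lungs without cancers of 22.01 after HBSS and 23.45 after S100A8, and in lungs with LLC cancers of 22.16 after HBSS and 22.87 after S100A8. Its normalized levels spanned 0.62 on the log2 scale over the 4 groups, the narrowest span of the 6 genes with this reference. Its log2 difference from HBSS + vehicle was 0 after S100A8 alone, -0.49 with LLC cancers alone and 0.13 with both. With LLC cancers alone this ran from -2.09 to 1.11 over the references, past 2-fold in opposite directions. Among lungs with LLC cancers, *EGFR* was 1.54-fold higher after S100A8 than after HBSS, at rank 18 of 98 from the top. With the first housekeeping assay alone this log2 fold change was -0.24, and with the second alone 1.48.

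*SKY* (mouse gene Tyro3), a receptor known for dampening innate immune responses, had a mean Ct in lungs without cancers of 21.16 after HBSS and 22.19 after S100A8, and in lungs with LLC cancers of 21.63 after HBSS and 22.52 after S100A8. The order of its levels depended on the reference. With the mean of both assays S100A8 + vehicle was highest and HBSS + LLC lowest, and with the first assay alone HBSS + vehicle was lowest. Against HBSS + vehicle the log2 fold changes were 0.41 after S100A8 alone, -0.81 with LLC cancers alone and -0.37 with both. None passed 2-fold, and the value with LLC cancers alone ran from -2.41 to 0.79 over the references. In mice given S100A8, *SKY* was 1.72-fold lower with LLC cancers than without, from 1.60-fold to 1.93-fold over the references.

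Counted together, no member was past 2-fold in S100A8 + vehicle, where 27.8% of 97 panel genes were higher and 17.5% lower than in HBSS + vehicle. In HBSS + LLC, 1 of 6 was higher and none lower, where 21.4% of the panel was lower. In S100A8 + LLC, no member passed against HBSS + vehicle, where 22.4% of the panel was higher and 18.4% lower. The median log2 fold change of the 6 members was 0.17, -0.56 and -0.455 in these 3 comparisons, beside 0.34, -0.185 and -0.22 over all panel genes. Between S100A8 + LLC and HBSS + LLC it was 0.165, beside -0.055, and between S100A8 + LLC and S100A8 + vehicle 0.13, beside -0.435. All comparisons with HBSS + vehicle share that group, so they are not independent.

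**Figure D2:**
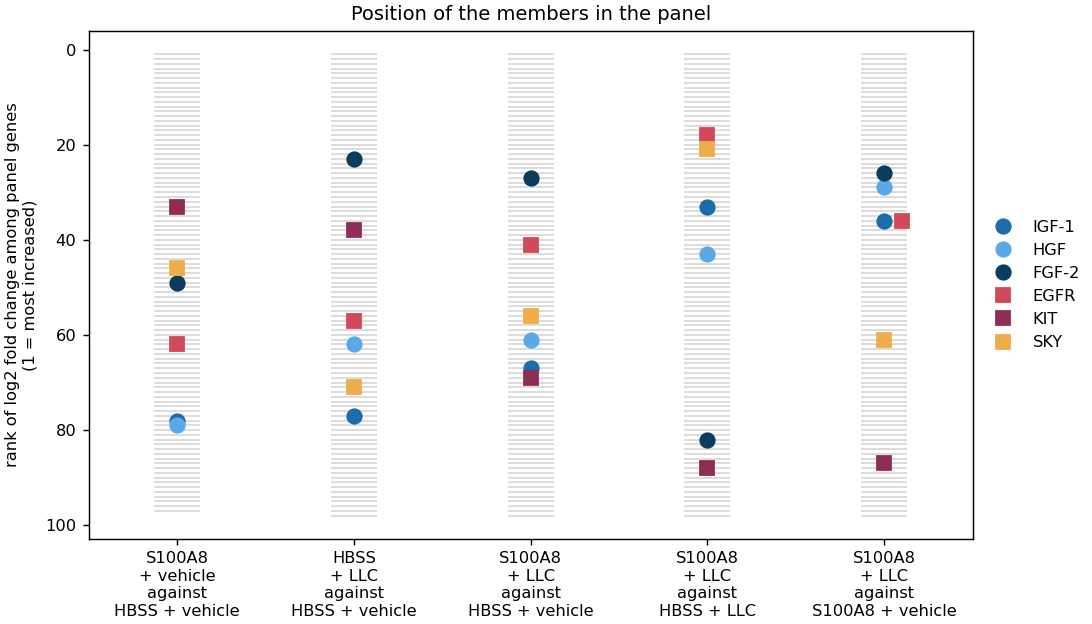
Rank of each member's log2 fold change among the 97 or 98 panel genes with a value (y axis, 1 the most increased) in 5 comparisons between groups (x axis). Circles are ligands, squares receptors and grey dashes all ranks; *KIT* and *FGF-2* lie at ranks 88 and 82 in S100A8 + LLC against HBSS + LLC, and *FGF-2* at rank 23 in HBSS + LLC against HBSS + vehicle.

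Ratios between members need no housekeeping gene, because the reference cancels. Of the 15 pairs, 10 changed by more than 1 on the log2 scale in at least 1 group relative to HBSS + vehicle. The share of all pairs of panel genes past this size was not computed, so the count shows no trait particular to the members. *FGF-2* was in 5 of the 10 member pairs and *KIT* in 4, with the pair of *FGF-2* and *KIT* counted in each. The 2 pairs past this size that held neither were *IGF-1* with *SKY* and *HGF* with *SKY*, both in S100A8 + vehicle, at -1.25 and -1.33. In HBSS + LLC, *FGF-2* gained on each of the other 5 members. Its ratio was 2.22-fold higher over *KIT*, 4.41-fold over *EGFR*, 4.86-fold over *HGF*, 5.50-fold over *SKY* and 6.06-fold over *IGF-1*. In S100A8 + LLC these gains were 2.77-fold over *KIT*, 1.52-fold over *EGFR*, 2.41-fold over *HGF*, 2.14-fold over *SKY* and 2.71-fold over *IGF-1*, smaller than in HBSS + LLC for all but *KIT*.

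*IGF-1* and *HGF* kept the closest ratio. On the log2 scale it changed by 0.08 after S100A8 alone, -0.32 with LLC cancers alone and -0.17 with both. *EGFR* over *SKY* was the other pair within 0.5, at -0.41, 0.32 and 0.50. *IGF-1* over *KIT* changed by -1.57 after S100A8 alone, -1.45 with LLC cancers alone and 0.03 with both. The ratio of *EGFR* over *KIT* was -0.99 in HBSS + LLC and 0.87 in S100A8 + LLC, so that it turned by 1.86 between these groups, the largest turn of any pair between them. Whether these ratios differ beyond the spread between mice cannot be tested.

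**Figure D3:**
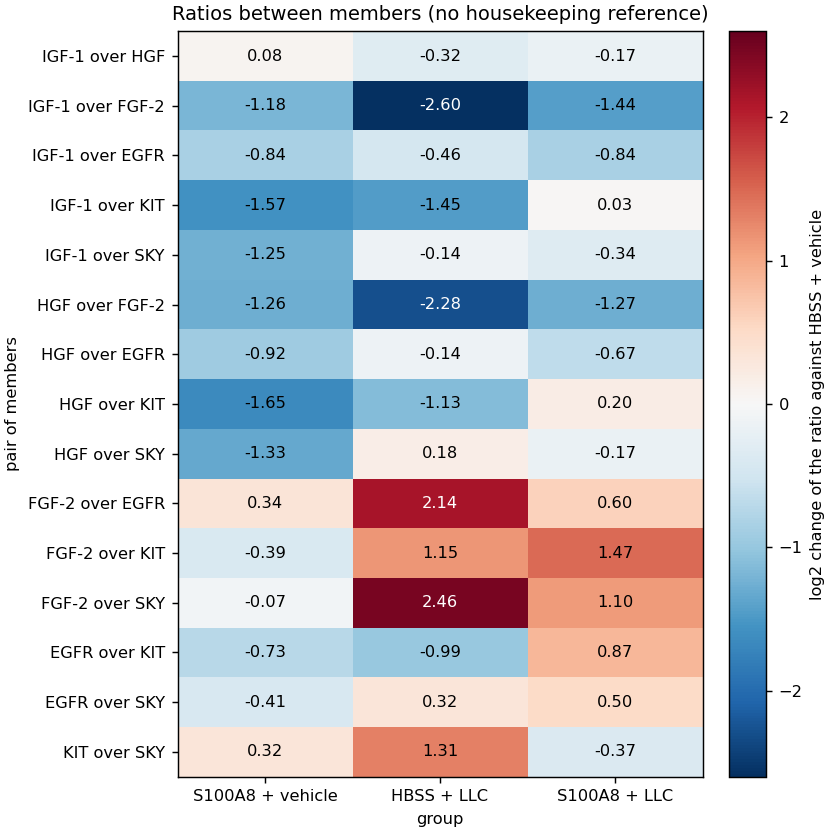
Log2 change of the ratio between 2 members relative to HBSS + vehicle (colour and printed value) for 15 pairs (rows) in 3 groups (columns). Red means that the first-named gene gained on the second; the row of *IGF-1* over *HGF* stays between -0.32 and 0.08, and *IGF-1* over *FGF-2* reaches -2.60 in HBSS + LLC.

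S100A8 was set against HBSS both without and with LLC cancers. The log2 difference without and with LLC cancers was -0.84 and 0.24 for *IGF-1*, -0.92 and 0.09 for *HGF*, and 0.34 and -0.92 for *FGF-2*. It was 0 and 0.62 for *EGFR*, 0.73 and -1.24 for *KIT*, and 0.41 and 0.44 for *SKY*. *KIT* was therefore higher with S100A8 in lungs without cancers and lower with S100A8 in lungs with them, under each of the 4 references. Such opposite signs were found in 4 of the 6 members, and in 59.8% of 97 panel genes, with the mean of both housekeeping assays. Under all 4 references they were found in 1 member and in 18.6% of panel genes. The size with the mean of both assays was below 2-fold for *KIT* in lungs without cancers. Over the references the log2 value there ran from 0.09 to 1.37. The Ct of *KIT* itself rose by 0.71 cycles after S100A8 in these lungs, less than each of the 4 references rose.

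**Figure D4:**
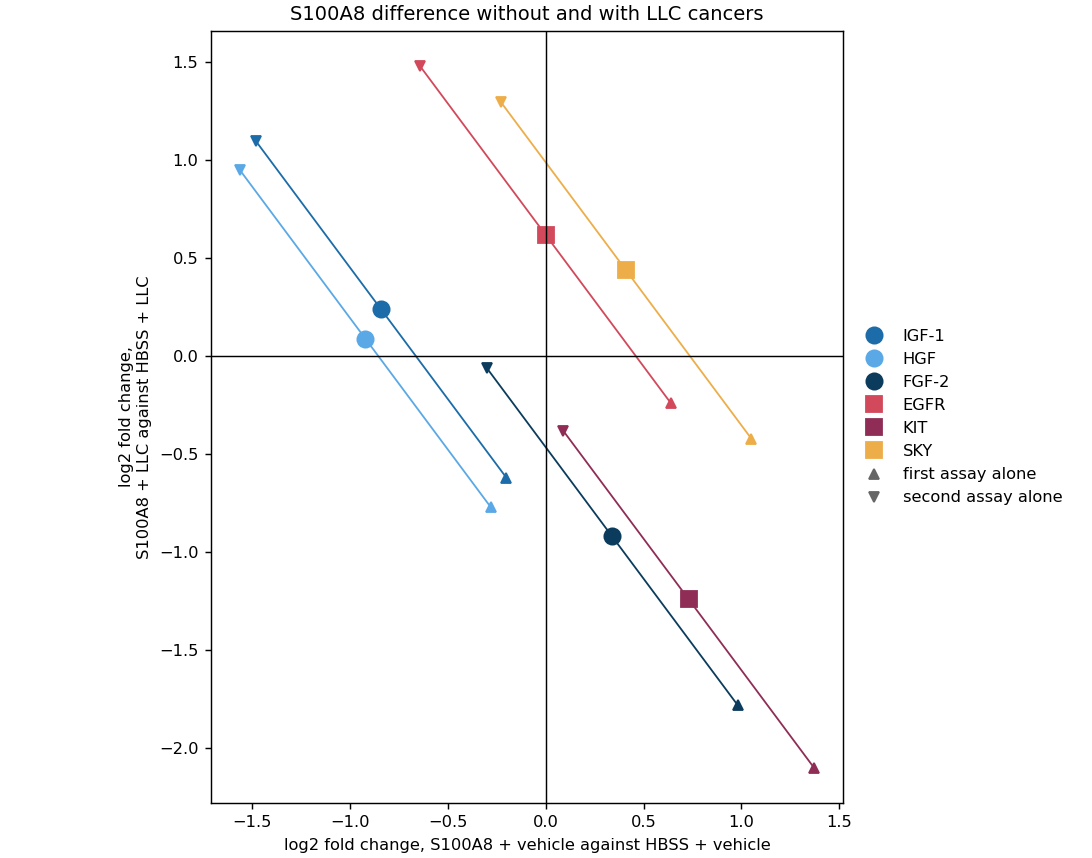
Log2 fold change with S100A8 in lungs without LLC cancers (x axis, S100A8 + vehicle against HBSS + vehicle) and with them (y axis, S100A8 + LLC against HBSS + LLC) for the 6 members. Large symbols use the mean of both housekeeping assays, small triangles 1 assay alone; *KIT* stays right of and below the origin along its whole line, from 0.09 and -0.38 to 1.37 and -2.10.

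Other panel genes of the same pathway were the ligands *VEGFα* and *M-CSF* (CSF-1), 7 signalling genes and targets, and the proliferation and arrest genes *MKI67* and *CDKN1A*, 11 in all. Against HBSS + vehicle, S100A8 alone had 5 of these higher and 1 lower, where 27.8% of the panel was higher and 17.5% lower. LLC cancers alone had 2 higher and 1 lower, beside 26.5% and 21.4% of the panel, and both together 2 higher and 1 lower, beside 22.4% and 18.4%. Between S100A8 + LLC and HBSS + LLC, none was higher and 1 was lower, beside 11.2% and 15.3%. Between S100A8 + LLC and S100A8 + vehicle none was higher and 3 were lower (*M-CSF*, *STAT3* and *SOCS3*), beside 12.2% and 29.6%. Their median log2 fold changes were 0.58, 0.24, 0, -0.01 and -0.28 in these 5 comparisons.

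These counts use the mean of both housekeeping assays, and most depend on it. Panel shares under the other references were not computed, and a reference moves all panel genes alike. After S100A8 alone, 6 of the 11 were higher and none lower under the first assay, 1 was higher and 4 lower under the second, and 2 were higher and 2 lower under the panel median. In HBSS + LLC, 8 of the 11 were higher and none lower with the first assay alone, and none was higher and 7 were lower with the second alone. With both S100A8 and LLC cancers, 4 were higher and 1 lower under the first assay, none higher and 2 lower under the second, and 1 higher and 2 lower under the panel median. Between S100A8 + LLC and HBSS + LLC the balance turned, with none higher and 5 lower under the first assay and 4 higher and none lower under the second. The calls that held under each of the 4 references were *CDKN1A* after S100A8 alone, *LCK* with both, and *M-CSF*, *STAT3* and *SOCS3* between S100A8 + LLC and S100A8 + vehicle. In the last comparison the references moved log2 values by at most 0.17, so its calls were little exposed to them. *CDKN1A*, which encodes the cell-cycle inhibitor p21, was 5.43-fold higher after S100A8 alone, from 3.48-fold to 8.46-fold over the references. *LCK*, a kinase of T cells that is not a receptor, was 3.63-fold lower with both, from 2.17-fold to 6.06-fold. It was also 5.17-fold lower with LLC cancers alone and 3.10-fold lower after S100A8 alone. These 2 calls were lost with the first assay alone, at 1.71-fold and 1.99-fold. *STAT3*, which carries growth factor signals to the nucleus, and *SOCS3*, a feedback inhibitor of STAT signals, were each 2.69-fold lower in S100A8 + LLC than in S100A8 + vehicle.

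The other calls were lost under at least 1 reference. *VEGFα*, which drives vessel growth through VEGF receptors, was 4.99-fold above HBSS + vehicle with LLC cancers alone, and 1.65-fold with the second assay alone. Between the groups with cancers, *VEGFα* was 3.58-fold lower after S100A8 than after HBSS, and 1.97-fold lower under the second assay. *M-CSF*, which acts through the kinase CSF1R, was 2.31-fold higher after S100A8 alone, and 1.48-fold with the second assay alone. Its log2 fold change with LLC cancers alone ran from -1.63 to 1.57 and has no settled direction. *MKP1*, a phosphatase that switches off MAP kinases, was 2.99-fold higher after S100A8 alone and 3.34-fold higher with both, and 1.92-fold and 2-fold higher with the second assay alone. *MKI67*, a proliferation marker, had log2 fold changes between -0.46 and -0.21 against HBSS + vehicle, but with LLC cancers alone it ran from -2.06 to 1.14 over the references.

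The panel genes nearest to each member were found by the root mean square difference of log2 fold changes against HBSS + vehicle over the other 3 groups, which needs no reference. *KIT* was nearest to *ANXA5*, at 0.184, and *CXCL-10*, at 0.272. *FGF-2* was nearest to *CAV1*, at 0.425, and *CADM1*, at 0.534. *IGF-1* and *HGF* were nearest to each other, at 0.214, followed by the chemokine receptor *CXCR4* for *IGF-1*, at 0.220, and the chemokine *CCL-11* for *HGF*, at 0.27. *EGFR* was nearest to *MST1*, at 0.280, and *MKI67*, at 0.299, and *SKY* to *CCL-4*, at 0.231, and *MIF*, at 0.234. With 3 values per gene these are descriptions of averaged profiles.

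Cell types in the lung were read from 10 marker assays, with Ct values between 14.95 and 30.84, none of them at the cut off of 38 cycles. The alveolar markers *CAV1* and *AGER* had Ct values of 14.95 to 18.56 and 16.06 to 17.90. The epithelial adhesion gene *CDH1* and the basal keratin gene *KRT5* moved most against HBSS + vehicle with LLC cancers alone. *CDH1* was 16.8-fold higher and *KRT5* 8.63-fold lower, and both calls held under each of the 4 references. *CDH1* was also 32.7-fold higher after S100A8 alone and 12.3-fold higher with both. Beside the increase of *FGF-2* in HBSS + LLC, *CAV1*, which endothelial cells also express, had a log2 fold change of 1.47, and -0.13 with the second assay alone, and *AGER* ran from -2.34 to 0.86 over the references, with no settled direction. Of all 10 markers, 2 were higher and 3 lower in that group, where 26.5% of the panel was higher and 21.4% lower. Among the lower was *LCK*, the T cell marker, at -2.37 and from -3.97 to -0.77 over the references. The marker counts became 6 higher and 1 lower with the first assay alone and 1 higher and 7 lower with the second. Panel shares under these single assays were not computed. Beside the decrease of *KIT* between S100A8 + LLC and HBSS + LLC, 1 marker, the basal keratin gene *KRT14*, was higher and none lower with the mean of both assays. In that comparison 11.2% of the panel was higher and 15.3% lower. With the first assay alone 5 markers were lower (*CAV1*, *CDH1*, *MUC1*, *S100A9* and *NOX2*), and with the panel median 3 (*CAV1*, *S100A9* and *NOX2*). With the second assay alone 4 were higher and none lower. The myeloid markers *S100A8*, *S100A9* and *NOX2* lay between -0.95 and 0.66 with the mean of both assays. Beside the decrease of *KIT* between S100A8 + LLC and S100A8 + vehicle, 1 marker was higher (*KRT14*, at a log2 fold change of 2.60) and 4 were lower. In the panel 12.2% were higher and 29.6% lower. The lower markers were *S100A9* at -1.99, *AGER* at -1.72, *MUC1* at -1.45 and *CDH1* at -1.41. *RAGE*, by name another panel entry for *AGER*, was at -1.12. All 5 marker calls held under each of the 4 references, which moved log2 values here by at most 0.17. Against HBSS + vehicle, 3 markers were higher and 2 lower after S100A8 alone, beside 27.8% and 17.5% of the panel. The marker counts became 6 and 1 under the first assay and 1 and 2 under either the second assay or the panel median. With both, 2 markers were higher and 2 lower, beside 22.4% and 18.4% of the panel. The marker counts became 4 and 2 under the first assay and 2 and 5 under either of the others. The part of cell composition in the differences of *FGF-2* and *KIT* was not tested, and the marker list holds no marker of mast cells.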

How the data were processed

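Total RNA (1.5 µg) of whole lungs was reverse-transcribed and amplified with SYBR Green in a panel of 98 genes and 2 housekeeping genes, with a cut off of 38 cycles. The authors averaged Ct values over 4 to 5 mice per group and deposited 1 mean Ct per assay and group without normalization. They also deposited fold changes, ratios against HBSS + vehicle computed by the authors. These were used here only to name assays and are not reported. Assays are numbered, and each of the 98 genes matched exactly 1 assay at the 3 fold changes printed by gene and group in the supplementary table, within a relative tolerance of 1e-05. The fold-change columns were assigned to 3 groups in the same way, and the Ct columns took these groups by their headings. The Ct column left over was taken as HBSS + vehicle. With it as the base, recomputed log2 fold changes differed from the deposited ones by a constant per group, within 0.0095. The 2 assays left over were taken as the housekeeping genes, called the first and second assay since the values do not tell β-actin from β2M.

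Log2 fold changes were the negative differences between groups in Ct minus the mean of the 2 housekeeping assays. Genes at 38 cycles in both groups got no value. Members past 2-fold were counted in 5 comparisons, beside the share of all panel genes. With 1 value per group there is no test and the precision is unknown. By name, the panel has 2 entries each for cyclooxygenase-2 (*COX-2*, *PTGS2*) and RAGE (*AGER*, *RAGE*). Log2 fold changes against HBSS + vehicle, after S100A8 alone, LLC cancers alone and both, were -0.28, 1.36 and -0.37 for *COX-2*. They were -1.75, 0.75 and -0.33 for *PTGS2*, 0.87, -0.74 and -0.85 for *AGER*, and 0.90, -0.39 and -0.22 for *RAGE*. Alternatives were each housekeeping assay alone, the median of the panel genes, a Ct cap at 35, a limit of 30 cycles, and thresholds of 1.5 and 3. All 6 symbols were found in RefSeq (GRCm38.p6), *SKY* as a synonym of Tyro3. The members and gene lists were chosen with earlier results of these data known. All 6 members were named, with the pathway genes, the markers and the 2 panel genes nearest to each member. *CXCR4*, *ANXA5* and the other nearest genes entered by that rule. *RAGE*, *COX-2* and *PTGS2* were named after their values were seen. Values of 1 pathway gene are not reported here, although it is in the counts and medians of its list. The arithmetic was tested on simulated Ct values. Python 3.11.15, numpy 2.4.6 and matplotlib 3.10.9 were used.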

Additional observations from a re-analysis of the deposited data

Results flagged for a closer look

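Between S100A8 and HBSS, 4 of the 6 members differed one way in cancer-free lungs and the other way in lungs with LLC cancers, as did 59.8% of 97 panel genes. The log2 difference with LLC cancers minus that without was 1.08 for *IGF-1*, 1.01 for *HGF*, -1.26 for *FGF-2* and -1.97 for *KIT*, beside a median of -0.52 over 97 panel genes. Counted from the lowest of the 97, *KIT* ranked 22 and *FGF-2* 34. These differences were not tested, since each group is 1 averaged value. The opposite directions held under 4 of the 4 references for *KIT* and under 2 of 4 for *IGF-1*, *HGF* and *FGF-2*. For *EGFR*, at 0 in cancer-free lungs with the mean of both assays, they held under 3 of 4, and for *SKY* under 2 of 4. Groups of mice could not be searched for outlying samples.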

How the results depend on the processing

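Every member fold change carries the shift of its reference. The first housekeeping assay alone added 0.64 to each log2 fold change of S100A8 + vehicle, 1.60 to those of HBSS + LLC and 0.74 to those of S100A8 + LLC, all against HBSS + vehicle, and the second alone took off as much. The number of the 6 members past 2-fold, 0 in S100A8 + vehicle against HBSS + vehicle, became 2 with the first assay alone (both higher), 2 with the second (both lower), 2 under the panel median (both lower) and 3 at a threshold of 1.5-fold. In HBSS + LLC, the count of 1 became 3 with the first assay alone (all higher), 5 with the second alone (all lower), 2 with the median and 4 at 1.5-fold. In S100A8 + LLC against HBSS + vehicle, 0 became 1 (higher), 4 and 3 (lower) with the first assay, the second assay and the median, and 3 at 1.5-fold. Against HBSS + LLC, 1 became 2 (lower), 3 (higher), 2 (lower) and, at 1.5-fold, 3, and it was 0 at 3-fold. Against S100A8 + vehicle, the count was 2 at 1.5-fold and 0 at 3-fold. It stayed at 1 under every reference, where the shifts were only 0.10, -0.10 and -0.17. The mean of both assays lies between the 2 assays, so the 4 references are not 4 separate checks. The share of panel genes past the threshold was not computed under these other settings. Each reference moves all panel genes alike, so these counts show no trait particular to the members. Of the 30 member values over the 5 comparisons, 17 kept their direction with the first assay alone, 24 with the second, 21 with the median and 30 with Ct capped at 35. No member value past 2-fold with the mean of both assays changed sign. In HBSS + LLC, *EGFR* and *KIT*, within 2-fold with that mean, passed it higher with the first assay alone (1.11 and 2.10) and lower with the second alone (-2.09 and -1.10). The difference between the S100A8 effects moved by -1.50 with the first assay alone and by 1.50 with the second, which turned it to -0.42 for *IGF-1* and -0.49 for *HGF* under the first assay and to 0.24 for *FGF-2* under the second. For *EGFR* it turned from 0.62 to -0.88 and for *SKY* from 0.03 to -1.47 under the first. The pathway genes and markers were recomputed under each reference, an alternative chosen after seeing the data, and *CAV1* in HBSS + LLC turned from 1.47 to -0.13 with the second assay alone. Leaving out genes above 30 cycles or capping Ct at 35 changed none of the member counts. No paired analysis was possible because each group has 1 averaged value and the groups share only replicate number 1.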
